A study of Mus musculus with 6 samples.

Results

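The collagens of mouse skin were followed here from cell type to cell type. Every gene whose symbol has the form of an alpha chain (Col, a number, a, a number) was taken, which gave 44 of 32285 genes. The study sensitized the skin of Balb/c mice epicutaneously (EC, through the skin surface) for 10 days and took it 2 days later. The skin was digested with enzymes and its cells were sequenced with droplet 3′ chemistry from 10x Genomics, in which each captured transcript counts as a unique molecular identifier (UMI). The 3 EC-SAL libraries have the treatment label control and the 3 EC-OVA libraries the label OVA-sensitized (n = 3 libraries per group throughout). All 6, controls included, are labelled as sensitized skin. The labels do not tie the replicates to separate mice, so a p-value reflects how far these libraries vary, which may be technical variation alone.

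Collagens are secreted or membrane proteins in which 3 alpha chains wind into a triple helix. Types I, III and V, and in cartilage II and XI, form fibrils. Types IX, XII and XIV sit on the surface of fibrils, type IV forms the network of basement membranes, type VI forms beaded filaments around cells, and type VII anchors the epidermal basement membrane to the dermis. Type XVII spans the membrane of basal keratinocytes and ties them to that basement membrane. Dermal fibroblasts are known as the main makers of skin fibrils, and lysyl oxidases crosslink the fibrils outside the cell.

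After filtering, the libraries held 3405 to 4994 cells each and 21743490 to 28049562 UMIs, 24432 cells in all. CD4 is the cell type that the labels give, but only 418 cells fell in the lymphoid class, and the libraries were read as whole-skin suspensions. Cells were clustered with collagen genes left out and named from markers that include no collagen. The classes followed, with their cells in EC-SAL and EC-OVA, were fibroblast-like (2563 and 2968), chondrocyte-like (1054 and 981), perichondrial or tendon-like (622 and 430), pericyte- and smooth muscle-like (386 and 386), vascular endothelial-like (729 and 785), lymphatic endothelial-like (365 and 351), Schwann-like (380 and 234), basal keratinocyte-like (1843 and 547) and dermal papilla-like cells (307 and 303). Another 3410 cells in 4 clusters led by genes of follicle or upper epidermal keratinocytes stayed unnamed. Of the defining chondrocyte markers, Matn1 was at 0 in the chondrocyte-like class.

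Levels are given as CPM: the UMIs of a gene divided by all UMIs of that class in that library and multiplied by 1e6. Tags from the 3′ end do not scale with transcript length. A level is compared here between classes for 1 gene and not between genes. Lymphoid cells, which should make no fibrillar collagen, served as a measure of collagen RNA from other cells, free or in mixed barcodes. Col1a1 stood there at 26.5, 20.3 and 41.1 CPM in EC-SAL and at 56.6, 33.6 and 518 CPM in EC-OVA, on average 1.19% of the level in fibroblast-like cells. EC-OVA library 3 stood apart in this class. Pairs of libraries shared 12 to 34 kept barcodes, at most 0.873% of the smaller library. The limit of 15% mitochondrial counts, a sign of RNA quality, removed more barcodes in every EC-SAL library (22.1 to 23.1% of those that passed the minimum of 300 genes) than in every EC-OVA library (14.1 to 15.2%).

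The collagens were highest in different classes. Of the 44 genes, 40 had at least 100 UMIs. Fibroblast-like cells held the highest level of 11 of these, chondrocyte-like cells of 9, Schwann-like cells of 5, dermal papilla-like, perichondrial or tendon-like and pericyte- and smooth muscle-like cells of 3 each, vascular endothelial-like and basal keratinocyte-like cells of 2 each, and lymphatic endothelial-like cells and an unnamed cluster of 1 each. For 25 of the 40 the libraries of the highest class did not overlap those of the next class. For the other 15 they did, and the order of the first and second class is not settled by these libraries. The minimum of 100 UMIs is a total over all kept cells. Schwann-like cells, the highest class of Col4a4 and Col24a1, held 3.70% of the 108 UMIs of Col4a4 and 3.85% of the 156 UMIs of Col24a1. Col4a3, Col6a4, Col19a1 and Col22a1 had 24, 51, 3 and 13 UMIs, too few to rank classes, although 90.2% of the Col6a4 UMIs lay in dermal papilla-like cells.

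**Figure D1:**
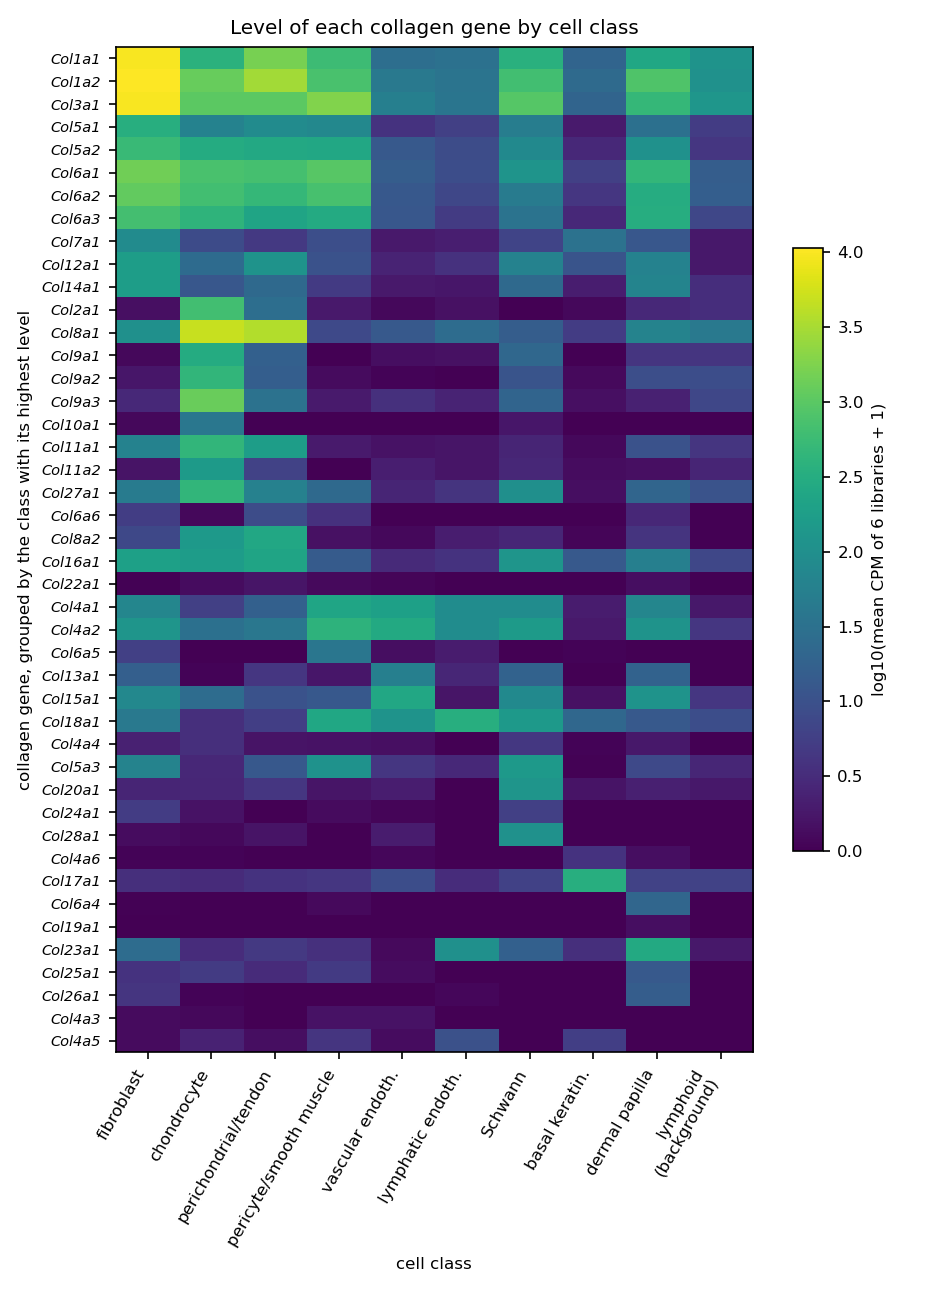
Each row is a collagen gene and each column a cell class, and colour gives log10 of the mean CPM of 6 libraries with 1 added. Rows are grouped by the class with the highest level, so that Col1a1, Col1a2, Col3a1, Col5a1 and Col5a2 are brightest under fibroblast and the chains of types II, IX and XI under chondrocyte. The lymphoid column on the right is the background, the 4 unnamed clusters are not drawn, and Col4a3 and Col4a5 in the last rows were highest in an unnamed cluster.

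Among the fibrillar collagens, Col1a1 and Col1a2, the chains of type I, were highest in fibroblast-like cells. Col1a1 stood at 9241, 9105 and 9598 CPM in EC-SAL and 10050, 9772 and 10770 CPM in EC-OVA (libraries 1 to 3 in this order, here and below). Col1a2 stood at 10700, 10040 and 10780 CPM in EC-SAL and 10740, 10380 and 11180 CPM in EC-OVA. The EC-OVA libraries lay just above the EC-SAL libraries for Col1a1 and overlapped them for Col1a2. Perichondrial or tendon-like cells came next, with 1599 ± 130.0 CPM of Col1a1 and 2985 ± 264 CPM of Col1a2 (SD, n = 6 libraries, here and in the levels below). Fibroblast-like cells held 95.25% of all Col1a1 UMIs and 91.34% of those of Col1a2.

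The balance of the type I chains differed between classes. The ratio of Col1a1 to Col1a2 UMIs was 0.917 ± 0.0367 in fibroblast-like, 0.738 ± 0.157 in pericyte- and smooth muscle-like and 0.537 ± 0.0317 in perichondrial or tendon-like cells, and 0.297 ± 0.0359 in chondrocyte-like and 0.300 ± 0.113 in dermal papilla-like cells. In pericyte- and smooth muscle-like cells it was 0.6715, 0.571 and 0.673 in EC-SAL and 0.660, 0.853 and 0.998 in EC-OVA. Across 19 classes and clusters, which share the same libraries and their free RNA, the levels of the type I chains had a Pearson correlation of 0.985 on log2(CPM + 1).

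Col3a1, the chain of type III, was also highest in fibroblast-like cells, at 8876, 8884 and 8763 CPM in EC-SAL and 10290, 9824 and 11300 CPM in EC-OVA. Every EC-OVA library was above every EC-SAL library. Pericyte- and smooth muscle-like cells came next at 1843 ± 431 CPM. Col5a1 and Col5a2, the type V chains that help to set the width of type I fibrils, stood at 328.5 ± 63.8 and 542.5 ± 135 CPM in fibroblast-like cells. Their relative Col5a3 did not follow them in level per class: it stood at 149.8 ± 37.4 CPM in Schwann-like, 111 ± 37.4 CPM in pericyte- and smooth muscle-like and 61.2 ± 15.02 CPM in fibroblast-like cells, and the libraries of the first and second class overlapped. Schwann-like cells, a small class, held only 6.095% of the 2740 Col5a3 UMIs.

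The cartilage fibril chains lay in chondrocyte-like cells. Col2a1, the type II chain, stood at 646 ± 331 CPM there and at 27.7 ± 24.5 CPM in perichondrial or tendon-like cells, and chondrocyte-like cells held 96.72% of its UMIs. The type XI chains differed in their spread: chondrocyte-like cells held 93.56% of the UMIs of Col11a2 but 57.6% of those of Col11a1. Col11a1 stood at 448 ± 116 CPM in chondrocyte-like, 171 ± 44.9 CPM in perichondrial or tendon-like and 59.3 ± 7.34 CPM in fibroblast-like cells. Col27a1, another fibrillar collagen known from cartilage, stood at 449 ± 35.8 CPM in chondrocyte-like and 100.1 ± 27.7 CPM in Schwann-like cells. Col24a1 had 156 UMIs in all and was near 4.88 CPM in Schwann-like and 4.15 CPM in fibroblast-like cells.

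The fibril-associated collagens divided along the same lines. Col9a1, Col9a2 and Col9a3, the chains of type IX that decorate type II fibrils, had 94.83%, 95.64% and 96.6% of their UMIs in chondrocyte-like cells. Col12a1 and Col14a1, which bind type I fibrils, were highest in fibroblast-like cells at 177 ± 70.6 and 176 ± 26.5 CPM. The Col12a1 libraries overlapped those of perichondrial or tendon-like cells at 115 ± 21.8 CPM, and the Col14a1 libraries overlapped no other class. Col16a1 was spread over perichondrial or tendon-like (221 ± 31.98 CPM), fibroblast-like (190.5 ± 17.4 CPM) and chondrocyte-like cells (168 ± 15.4 CPM).

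Schwann-like cells, the glia of skin nerves, held Col20a1 and Col28a1. Col20a1 stood at 126 ± 81.8 CPM there and at 3.28 ± 2.94 CPM in the next class, and 48.15% of its 297 UMIs lay in Schwann-like cells. Col28a1, known for its expression in peripheral nerve, stood at 106.5 ± 20.6 CPM against 1.03 ± 0.677 CPM, and Schwann-like cells held 81.21% of its 149 UMIs. The class was made of a cluster with the myelin genes Mbp and Ncmap among its leading genes (218 and 116 cells in EC-SAL and EC-OVA) and a cluster led by Lyz2 and Gatm (162 and 118 cells). Col20a1 had 0 of 595672 UMIs in the Mbp cluster, which allows up to 5.04 CPM (3 counts, counting error only), and 261 ± 154 CPM in the Lyz2 cluster. Col9a1 was the reverse, at 41.5 ± 22.1 CPM in the Mbp cluster and 0 of 545473 UMIs, which allows up to 5.50 CPM, in the Lyz2 cluster. Col28a1 was at 104 ± 33.98 and 103 ± 31.5 CPM, well within its spread.

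Other collagens were higher in the Lyz2 cluster: Col18a1 stood at 50.2 ± 23.3 CPM in the Mbp cluster and 246 ± 107.5 CPM in the Lyz2 cluster, and Col3a1 at 244 ± 79.9 and 1706 ± 396 CPM. The 12 fibroblast markers summed to 954 to 2095 CPM in EC-SAL and 1135 to 2399 CPM in EC-OVA in the Mbp cluster and to 4989 to 8709 CPM in EC-SAL and 4338 to 5474 CPM in EC-OVA in the Lyz2 cluster, where Dpt and Lrrc15 were at 0. The part of other cells in the Col3a1 level of the Lyz2 cluster was not tested.

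The basement membrane chains Col4a1 and Col4a2 were highest in the walls of vessels. In pericyte- and smooth muscle-like cells they stood at 228 ± 93.01 and 405 ± 112 CPM, and in vascular endothelial-like cells, with overlapping libraries, at 196 ± 66.3 and 281 ± 62.1 CPM. This is an order of levels: pericyte- and smooth muscle-like cells held only 11.48% of the Col4a1 UMIs and 12.23% of the Col4a2 UMIs. Within the endothelium the cluster with the capillary gene Gpihbp1 among its leading genes had 275.5 ± 104 CPM of Col4a1. The cluster led by Selp and Ackr1, genes of venules, had 92.3 ± 32.04 CPM. Fabp4 was among the leading genes of both clusters. The other type IV chains were rare. Col4a5 stood at 9.84 ± 1.75 CPM in the unnamed cluster led by Krt17 and Gjb2 and at 9.03 ± 2.35 CPM in lymphatic endothelial-like cells. Col4a6 stood at 2.85 ± 0.810 CPM in basal keratinocyte-like cells, and Col4a4 had 108 UMIs in all.

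The type IV genes lie in head-to-head pairs, each pair facing away from a common start region. In the mm10 annotation GENCODE M21, Col4a1 (chr8:11198423-11312826, minus strand) and Col4a2 (chr8:11312805-11449287, plus strand) overlap by 22 bases at their 5′ ends. Col4a4 and Col4a3 on chromosome 1 lie 71 bases apart, and Col4a6 and Col4a5 on chromosome X 1308 bases apart. The Pearson correlation of levels across 19 classes and clusters was 0.913 for Col4a1 with Col4a2 and 0.567 for Col4a5 with Col4a6, on log2(CPM + 1). The shared start region is shown because both of its genes were called in the same 2 classes below.

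The windows come from RefSeq (GRCm38.p6) and run from 250 bases before to 50 bases after the start, Col4a1 at chr8:11312777-11313076 on the minus strand and Col4a2 at chr8:11312555-11312854 on the plus strand. The start sites are 21 bases apart and the windows share 78 bases, read on opposite strands. Capitals mark matches on either strand to CCAAT (reverse complement ATTGG) and GGGCGG (reverse complement CCGCCC), and TATAAA was in neither window.
Col4a1: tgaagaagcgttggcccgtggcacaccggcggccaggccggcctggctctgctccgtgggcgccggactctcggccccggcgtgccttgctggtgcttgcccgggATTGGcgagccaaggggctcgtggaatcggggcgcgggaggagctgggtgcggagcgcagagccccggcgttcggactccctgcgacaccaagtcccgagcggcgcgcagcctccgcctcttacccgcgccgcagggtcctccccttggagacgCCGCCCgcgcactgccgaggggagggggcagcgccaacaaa
Col4a2: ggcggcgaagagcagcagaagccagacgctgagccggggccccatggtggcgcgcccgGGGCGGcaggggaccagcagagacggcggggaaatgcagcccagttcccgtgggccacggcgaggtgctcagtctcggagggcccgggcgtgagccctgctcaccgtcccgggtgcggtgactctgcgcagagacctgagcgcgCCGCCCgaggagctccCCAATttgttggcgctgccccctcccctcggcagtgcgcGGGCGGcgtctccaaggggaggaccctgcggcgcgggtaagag

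Col18a1 and Col6a2, which were called in 4 and 3 classes below, are shown in the same way, Col18a1 at chr10:77166481-77166780 and Col6a2 at chr10:76623581-76623880, both on the minus strand. Each has 2 start sites in the table. The Col18a1 window holds CCGCCC in 3 places and ATTGG in 1, and the Col6a2 window holds CCGCCC in 1.
Col18a1: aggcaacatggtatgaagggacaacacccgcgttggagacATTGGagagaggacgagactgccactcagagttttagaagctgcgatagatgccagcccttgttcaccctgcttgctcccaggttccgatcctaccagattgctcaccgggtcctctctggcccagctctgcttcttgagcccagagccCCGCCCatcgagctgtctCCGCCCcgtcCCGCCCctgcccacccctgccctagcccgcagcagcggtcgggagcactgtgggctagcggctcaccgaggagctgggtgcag
Col6a2: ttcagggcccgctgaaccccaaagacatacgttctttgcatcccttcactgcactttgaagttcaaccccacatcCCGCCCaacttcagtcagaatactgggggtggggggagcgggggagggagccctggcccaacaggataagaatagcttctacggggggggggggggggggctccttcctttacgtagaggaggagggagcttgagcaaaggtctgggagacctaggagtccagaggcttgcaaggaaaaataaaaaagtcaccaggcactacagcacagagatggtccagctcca

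Over the 38 windows that matched 35 of the collagen genes, GGGCGG was present on either strand in 23 (60.53%), against 35.66% of all 32851 windows. CCAAT was present in 13 (34.21%) against 37.41%, and TATAAA in 5 (13.16%) against 13.62%. CCAAT and GGGCGG can share letters where they adjoin. These are descriptions of letters in the windows, not of bound sites.

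Type VI filaments are built from Col6a1, Col6a2 and Col6a3. All were highest in fibroblast-like cells, at 1441 ± 199.7, 1137 ± 264 and 655 ± 128 CPM. Col6a1 and Col6a2 overlapped there with pericyte- and smooth muscle-like cells at 966 ± 377.5 and 722 ± 328.5 CPM. Across 19 classes and clusters the levels of Col6a1 had a Pearson correlation of 0.992 with Col6a2 and 0.989 with Col6a3, and Col6a2 and Col6a1 lie in tandem on chromosome 10, 85161 bases apart. The related chains Col6a6, Col6a5 and Col6a4, in tandem on chromosome 9, were each highest in another class, with overlapping libraries for Col6a5 and Col6a6 and few UMIs of Col6a4. Col6a4 was in dermal papilla-like cells at 20.2 ± 9.66 CPM, Col6a5 in pericyte- and smooth muscle-like cells at 36.7 ± 28.1 CPM, and Col6a6 at 7.51 ± 3.35 CPM in perichondrial or tendon-like and 4.42 ± 1.46 CPM in fibroblast-like cells.

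The short-chain collagens that form open networks lay on the cartilage side. Col8a1 stood at 4848 ± 470.5 CPM in chondrocyte-like and 3597 ± 437 CPM in perichondrial or tendon-like cells, and at 106 ± 5.85 CPM in fibroblast-like cells. Col8a2, its partner in type VIII, had the opposite order, at 143 ± 11.6 CPM in chondrocyte-like and 256 ± 31.9 CPM in perichondrial or tendon-like cells. Neither pair of classes overlapped. Col10a1, the chain of hypertrophic cartilage, stood at 37.98 ± 22.8 CPM in chondrocyte-like cells, which held 97.68% of its 345 UMIs.

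At the junction of epidermis and dermis, Col7a1, the anchoring fibril chain, was higher in fibroblast-like cells at 86.8 ± 21.1 CPM than in basal keratinocyte-like cells at 32.1 ± 2.997 CPM. Col17a1 stood at 331 ± 26.9 CPM in basal keratinocyte-like cells and at 151 ± 21.97 CPM in the unnamed cluster led by Krt17 and Gjb2. Neither gene's libraries overlapped between its highest classes.

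The other transmembrane collagens marked vessels and hair follicles. Col13a1 stood at 53.6 ± 15.8 CPM in vascular endothelial-like cells, with 85.4 ± 25.7 CPM in the Gpihbp1 cluster and 11.7 ± 4.09 CPM in the Selp cluster. Col23a1 was highest in dermal papilla-like cells, the mesenchyme at the base of the hair follicle, at 283 ± 39.2 CPM, and stood at 102 ± 13.4 CPM in lymphatic endothelial-like cells. Col25a1 was also highest in dermal papilla-like cells, at 12.1 ± 6.03 CPM, but its libraries overlapped those of the next class. Col26a1, which is not grouped with the transmembrane collagens, was highest there too, at 14.5 ± 6.05 CPM and without overlap.

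The multiplexins Col15a1 and Col18a1, proteoglycan collagens of basement membranes whose ends can be released as endostatin-type fragments, were highest in endothelial-like classes. Col15a1 stood at 258 ± 70.3 CPM in vascular endothelial-like cells, near level between the Selp cluster (258 ± 58.7 CPM) and the Gpihbp1 cluster (259 ± 82.3 CPM). Col18a1 stood at 338 ± 67.4 CPM in lymphatic endothelial-like, 248 ± 122 CPM in pericyte- and smooth muscle-like and 117 ± 49.9 CPM in vascular endothelial-like cells, and the libraries of the first and second class overlapped. Lymphatic endothelial-like cells held 18.86% of the Col18a1 UMIs.

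Summed over the 44 genes, collagen took a larger share of the UMIs after OVA sensitization in most of these classes. It took 3.32% ± 0.0653 in EC-SAL and 3.77% ± 0.184 in EC-OVA in fibroblast-like cells, and 1.22% ± 0.00931 in EC-SAL and 1.55% ± 0.0391 in EC-OVA in chondrocyte-like cells. It took 1.08% ± 0.0436 in EC-SAL and 1.32% ± 0.0389 in EC-OVA in perichondrial or tendon-like cells, and 0.460% ± 0.0479 in EC-SAL and 0.861% ± 0.0271 in EC-OVA in pericyte- and smooth muscle-like cells (SD, n = 3). In these 4 classes, and in vascular endothelial-like (0.0922% and 0.132%), lymphatic endothelial-like (0.0658% and 0.0965%) and basal keratinocyte-like cells (0.0461% and 0.0544%), every EC-OVA library was above every EC-SAL library. In each of them a two-sided exact permutation test gave p = 0.1, the smallest that 3 against 3 allows, or 0.178 adjusted over 16 shares. In Schwann-like (0.333% and 0.379%, exact permutation p = 0.2, adjusted 0.32) and dermal papilla-like cells (0.363% and 0.390%, exact permutation p = 0.4, adjusted 0.533) the libraries overlapped.

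The background share in lymphoid cells was 0.0179%, 0.0223% and 0.0103% in EC-SAL and 0.0759%, 0.0144% and 0.1625% in EC-OVA. The values of EC-OVA libraries 1 and 3 were of the size of the shares in endothelial and basal keratinocyte-like cells. In macrophage- and monocyte-like cells the share was 0.0533%, 0.0169% and 0.01905% in EC-SAL and 0.0341%, 0.0363% and 0.0279% in EC-OVA. In dendritic and Langerhans-like cells it was 0.0194%, 0.0104% and 0.0174% against 0.0164%, 0.01855% and 0.0164%. The high values of EC-OVA libraries 1 and 3 were thus not seen in these other leukocytes. The part of RNA from other cells, free or in mixed barcodes, in the low shares was not tested.

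**Figure D2:**
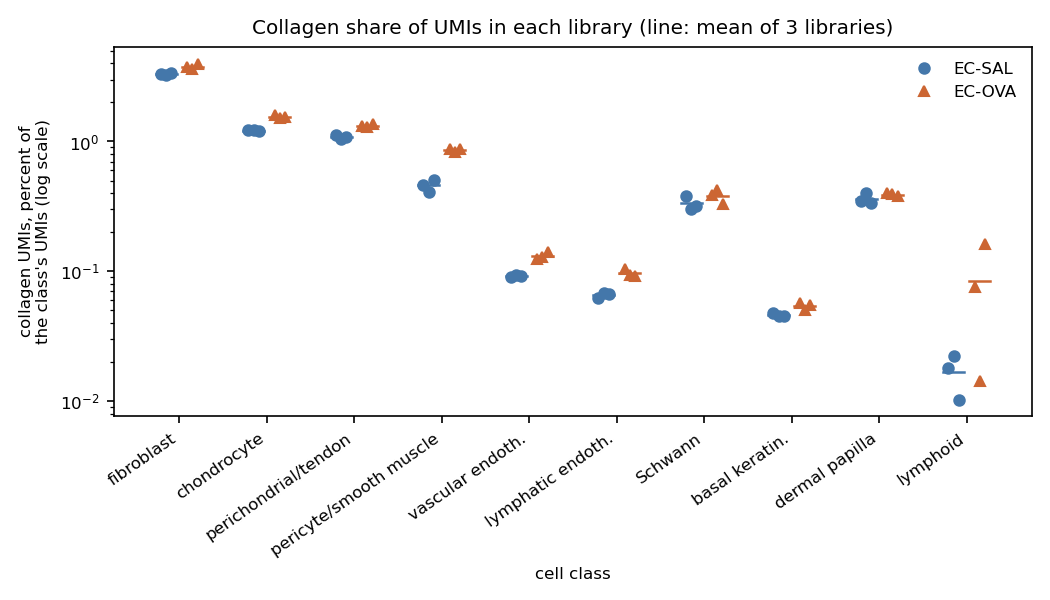
Each point is a library, circles for EC-SAL and triangles for EC-OVA, with the mean of 3 libraries as a line. The vertical axis, on a log scale, is the percent of a class's UMIs that came from the 44 collagen genes. In pericyte- and smooth muscle-like cells the mean stood at 0.460% in EC-SAL and 0.861% in EC-OVA, and the lymphoid background spread from 0.0103% to 0.1625%.

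Which collagens changed with OVA was tested within each class on UMIs summed per library, with edgeR's quasi-likelihood test fitted across all genes of the class. A gene was called at a Benjamini-Hochberg adjusted p under 0.05. In fibroblast-like cells 13 of the 29 collagens tested were higher in EC-OVA and 0 were lower. Of all 11375 genes tested there, 5.0% were called higher and 3.65% lower, and 15 collagens were too low to be tested. The median log2 fold change was 0.30 over the tested collagens and 0.01 over all genes tested. The calls took in every type V chain, Col6a1, Col6a2, Col6a3 and Col6a5 of the beaded filaments, the fibril-associated Col12a1 and Col14a1, and Col3a1, Col7a1, Col18a1 and Col27a1. The type I chains were not among them: Col1a1 stood at 0.14 (SE 0.055, edgeR adjusted p = 0.149) and Col1a2 at 0.05 (SE 0.052, edgeR adjusted p = 0.664) on the log2 scale.

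Col12a1 had the smallest p of these genes in fibroblast-like cells. It stood at 114, 106 and 117 CPM in EC-SAL and 249, 241 and 232.5 CPM in EC-OVA (log2 fold change 1.11, SE 0.067, edgeR adjusted p = 1.15e-06). The highest EC-SAL library was under the lowest EC-OVA library by far more than the spread within either group. Col5a2 stood at 426, 417.5 and 420.2 CPM in EC-SAL and 681, 625 and 685 CPM in EC-OVA (0.67, SE 0.060, edgeR adjusted p = 2.44e-05). Col5a1 stood at 277, 258 and 279 against 392.5, 372.5 and 393 CPM (0.52, SE 0.061, edgeR adjusted p = 0.000177). Col5a3 went from 48.7 ± 5.72 to 73.7 ± 8.05 CPM (0.60, SE 0.10, edgeR adjusted p = 0.00196). The type V chains thus rose together, each without overlap between the groups. Col5a3 lost its call with doublets kept, at 0.32 on the log2 scale (edgeR adjusted p = 0.0833). Both Col5a1 and Col5a3 also lost the call without sub-cluster 8, described below, and with the same mix of sub-clusters. Col5a2 kept its call in every setting.

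The type VI chains of fibroblast-like cells rose together too. Col6a2 stood at 899.6, 876 and 919 CPM in EC-SAL and 1409, 1319 and 1401 CPM in EC-OVA (log2 fold change 0.63, SE 0.058, edgeR adjusted p = 3.01e-05). Col6a3 stood at 549.7, 526 and 545 against 793, 736 and 782 CPM (0.52, SE 0.058, edgeR adjusted p = 0.000126), and Col6a1 at 1262, 1250 and 1281 against 1672, 1528 and 1652 CPM (0.37, SE 0.057, edgeR adjusted p = 0.00169). No EC-OVA library reached down to the EC-SAL range for any of them. The ratio of Col6a1 to Col6a2 UMIs was 1.40, 1.43 and 1.39 in EC-SAL and 1.19, 1.16 and 1.18 in EC-OVA. Col6a5, a chain that can take the place of Col6a3, went from 5 to 179 UMIs, with 0.422, 0.730 and 0 against 10.1, 4.63 and 13.1 CPM (edgeR adjusted p = 0.000615). Its fitted log2 fold change of 4.49 rests on the 5 counts in EC-SAL.

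Col7a1 in fibroblast-like cells stood at 65.6, 64.8 and 72.8 CPM in EC-SAL and 104.5, 104 and 108.5 CPM in EC-OVA (log2 fold change 0.66, SE 0.073, edgeR adjusted p = 0.000119), again without overlap. The other calls were smaller, with log2 fold changes of 0.41 for Col14a1, 0.34 for Col27a1, 0.30 for Col18a1 and 0.26 for Col3a1. Col3a1 lost its call with DESeq2 and without EC-SAL library 1, EC-SAL library 3 or EC-OVA library 3. Col27a1 lost its call with DESeq2 and without EC-SAL library 1 or 3 or EC-OVA library 1 or 2, and Col18a1 lost its call with DESeq2 and without any 1 library. Over the alternatives the adjusted p by edgeR or DESeq2 reached 0.303, 0.443 and 0.352 for these genes. Without sub-cluster 8, described below, Col3a1, Col7a1 and Col27a1 lost the call as well. With the stricter cell filter (at least 500 genes and at most 10% mitochondrial counts), where Col18a1 and Col27a1 lost the call, 12 collagens were called in fibroblast-like and 12 in pericyte- and smooth muscle-like cells.

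Markers of some other cells in the fibroblast-like sums are given next. The perichondrial or tendon markers are not summed here. Of these, Tnmd was among the 10 leading genes of fibroblast-like clusters of 1041 and 342 cells, in the latter with Fmod. The 12 chondrocyte markers summed to 115.5 to 122 CPM in EC-SAL and 109 to 124 CPM in EC-OVA, with Matn1 at 0, and the 11 pericyte and smooth muscle markers to 451 to 554 CPM in EC-SAL and 512 to 625 CPM in EC-OVA. The 8 basal keratinocyte markers were lower in EC-OVA, at 336 to 549.5 CPM in EC-SAL and 131 to 145 CPM in EC-OVA, and Col17a1, with 51 and 20 UMIs in these cells, went the same way. The summed fibroblast markers stood at 37640 to 38330 CPM in EC-SAL and 28280 to 30670 CPM in EC-OVA. The part of these markers in the calls was not tested.

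**Figure D3:**
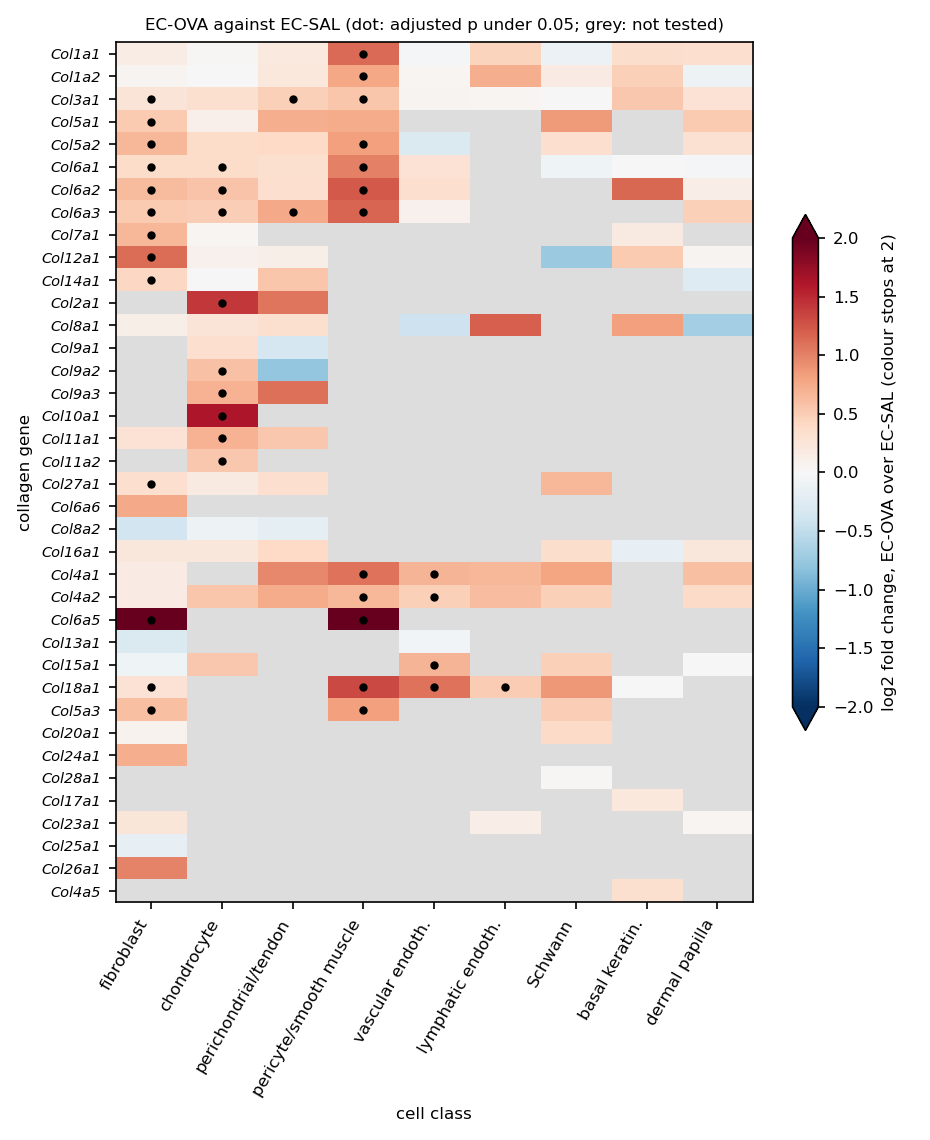
Rows are the 38 collagens tested in at least 1 class and columns the classes. Colour gives the log2 fold change of EC-OVA over EC-SAL, a dot marks an edgeR adjusted p under 0.05, and grey marks a gene too low to be tested. There are 13 dots under fibroblast, 12 under pericyte and smooth muscle and 9 under chondrocyte, all on rises.

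The fibroblast-like cells were clustered again without collagen genes, into 13 sub-clusters called here by number and leading genes. They differed in how much collagen they made. Sub-cluster 2 (Rspo1, Wif1, Wfdc12) gave 5.29% ± 0.165 in EC-SAL and 5.81% ± 0.298 in EC-OVA of its UMIs to collagen, and sub-cluster 1 (Il1r2, Penk, Pcolce2) 3.40% ± 0.185 in EC-SAL and 3.94% ± 0.169 in EC-OVA. Sub-cluster 10 (Sfrp5, Krt19, Sbspon) gave 0.493% ± 0.0615 in EC-SAL and 0.796% ± 0.236 in EC-OVA.

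Sub-clusters also differed in which chains they made, given here as EC-OVA levels (SD, n = 3). Col7a1 stood at 205 ± 31.5 CPM in sub-cluster 2, 17.6 ± 3.77 CPM in sub-cluster 1 and 1.28 ± 2.22 CPM in sub-cluster 5 (Myoc, Mgp, Ifi211). Col11a1, a cartilage chain by class, stood at 211.5 ± 20.5 CPM in sub-cluster 3 (Acta2, Actg2, Tagln) and 196 ± 22.4 CPM in sub-cluster 6 (Coch, Fmod, Crabp1), and at 1.77 ± 1.56 CPM in sub-cluster 2. Sub-cluster 6 was highest in Col24a1 at 49.3 ± 14.1 CPM, was highest in Col16a1 at 407 ± 77.3 CPM, and was lowest in Col14a1 and Col3a1 at 3.04 ± 5.27 and 1532 ± 152 CPM. Sub-cluster 7 (Ccl8, Hk2, C3), with a median of 1127.5 UMIs per cell, was highest in Col14a1 at 719 ± 54.2 CPM.

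Several low chains had their place in a small sub-cluster. Sub-cluster 5 had 76.8 ± 42.3 CPM of Col6a5, 42.2 ± 11.2 CPM of Col6a6 and 311.5 ± 62.5 CPM of Col8a1. Sub-cluster 10 had 368 ± 106 CPM of Col18a1 and sub-cluster 12 (Vtn, Trf, Cp), with 20 EC-OVA cells, 513 ± 64.1 CPM of Col15a1. Sub-cluster 11 (Hapln1, Nes, Sparcl1) had 166 ± 164 CPM of Col26a1, a mean as large as its spread. Sub-cluster 13, led by the keratinocyte genes Sprr1a and Krt14, had 35 and 9 cells and basal keratinocyte markers at 1663 to 8398 CPM in EC-SAL and 216 to 3244 CPM in EC-OVA, and its collagen levels are not read further.

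**Figure D4:**
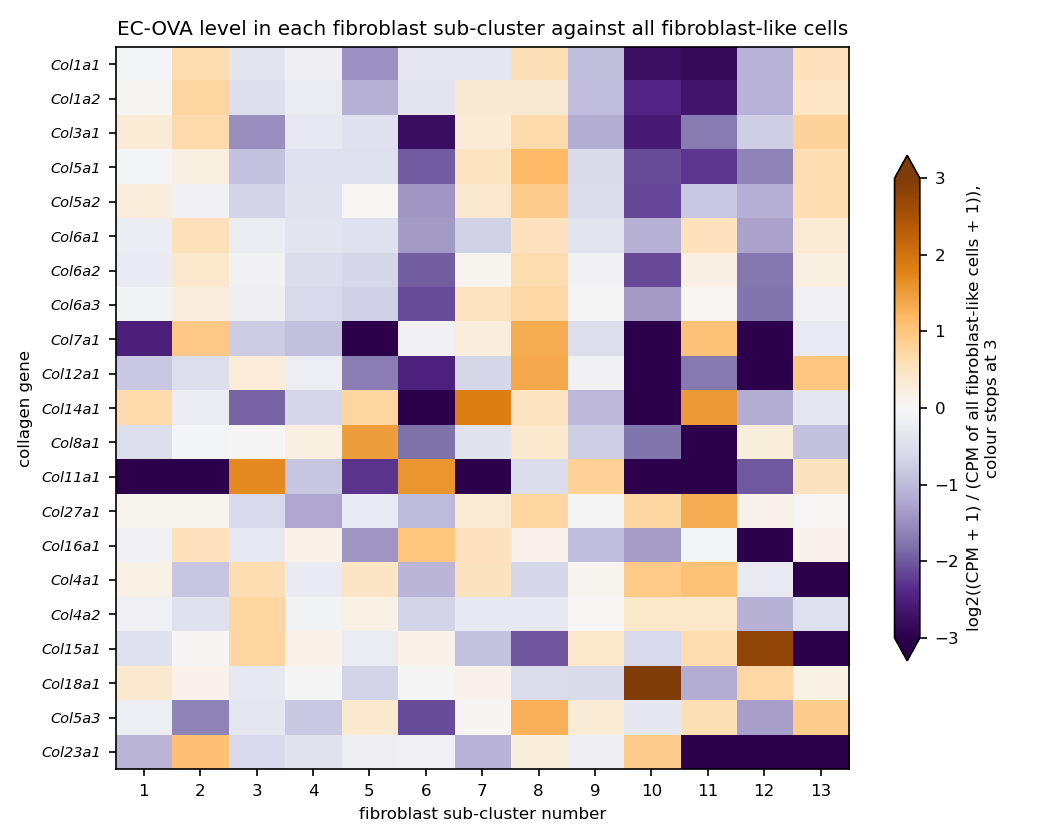
Columns are the 13 fibroblast sub-clusters and rows the 21 collagens with at least 20 CPM in EC-OVA fibroblast-like cells. Colour gives the log2 ratio of the mean EC-OVA level in the sub-cluster to that in all fibroblast-like cells, each with 1 CPM added. Columns 10 and 11 are low in the type I chains, Col12a1 and Col5a1 are highest in column 8, Col18a1 in column 10 and Col15a1 in column 12.

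Sub-cluster 8, led by Cxcl5, Acta2 and Aqp5 with Grem1, Tnn and Inhba among its top 10 genes, held 7 cells in EC-SAL and 260 in EC-OVA. These were 0.279% ± 0.202 and 8.77% ± 0.182 of the fibroblast-like cells. In EC-OVA it stood at 628 ± 16.7 CPM for Col12a1, 863 ± 105 CPM for Col5a1, 1247 ± 63.4 CPM for Col5a2, 179.9 ± 22.01 CPM for Col5a3 and 268 ± 31.7 CPM for Col7a1. Each of these was the highest among the 13 sub-clusters. With its cells left out, a choice made after they were seen, 8 collagens stayed called in fibroblast-like cells. Col12a1 then moved by 0.69 (edgeR adjusted p = 0.000132), Col5a2 by 0.45 and Col6a2 by 0.49 on the log2 scale. Col3a1, Col5a1, Col5a3, Col7a1 and Col27a1 lost the call. Every library was also weighted to the same mix of sub-clusters, taking only those with at least 10 cells in every library. This setting too leaves out sub-cluster 8. Col12a1 then moved by 0.63, and Col3a1, Col5a1, Col5a3 and Col27a1 lost the call.

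The rise of Col12a1, Col5a2 and the type VI chains was also seen within sub-clusters, among the 10 with at least 10 cells in every library. In sub-cluster 1, 6 of 20 collagens were higher (0.947% of all genes tested there were higher and 0.669% lower): Col5a2, Col6a1, Col6a2, Col6a3, Col12a1 and Col18a1. In sub-cluster 2, 4 of 21 were higher (0.487% and 0.571% of all genes): Col5a2, Col6a2, Col6a3 and Col12a1. In sub-cluster 4 (Fos, Rasl11b, Il1r2), 1 of 21 was higher (0.0927% and 0.260% of all genes), Col12a1. In sub-cluster 5, 4 of 18 were higher (1.10% and 0.368% of all genes): Col5a2, Col6a1, Col6a2 and Col6a5, the last with 3 UMIs in EC-SAL and 83 in EC-OVA. In sub-cluster 7, 3 of 11 were higher (4.16% and 5.42% of all genes): Col6a2, Col6a3 and Col14a1. None was lower in these sub-clusters. With DESeq2, Col6a3 and Col18a1 lost the call in sub-cluster 1 (adjusted p = 0.0543 and 0.255) and Col6a3 in sub-cluster 7 (adjusted p = 0.0598).

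Col12a1 rose from 60.6 ± 10.2 to 135 ± 8.85 CPM in sub-cluster 1 (log2 fold change 1.17, SE 0.13, edgeR adjusted p = 5.78e-05) and from 64.8 ± 13.99 to 171 ± 21.1 CPM in sub-cluster 2 (1.42, SE 0.15, edgeR adjusted p = 7.03e-05). Col14a1 rose from 270.5 ± 95.6 to 719 ± 54.2 CPM in sub-cluster 7 (1.30, SE 0.26, edgeR adjusted p = 0.00143). These calls held without each single library, while the number of calls ran from 3 to 6 in sub-cluster 1, 2 to 4 in sub-cluster 2, 0 to 2 in sub-cluster 4, 1 to 6 in sub-cluster 5 and 1 to 3 in sub-cluster 7. In sub-clusters 3, 6, 9 (Pclaf, Cdk1, Ube2c), 10 and 11 edgeR called 0 collagens, where 0.00%, 0.0579%, 0.0793%, 0.221% and 0.240% of all genes were called higher and 0.126%, 0.260%, 0.0198%, 0.00% and 0.00% lower. At an unadjusted p under 0.05 there were 3, 1, 5, 5 and 1 collagens, and DESeq2 called 1 in sub-cluster 9 and 0 in the others.

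In chondrocyte-like cells 9 of the 24 collagens tested were higher in EC-OVA and 0 lower, where 0.712% of all 8422 genes tested were higher and 0.748% lower. The calls fell on cartilage chains and on type VI. Col2a1 stood at 333.5, 389 and 343 CPM in EC-SAL and 853, 860.2 and 1098 CPM in EC-OVA (log2 fold change 1.42, SE 0.11, edgeR adjusted p = 5.83e-06). Col10a1 stood at 17.4, 23.03 and 16.6 against 69.4, 59.97 and 41.6 CPM (1.61, SE 0.22, edgeR adjusted p = 0.00148). For both genes the lowest EC-OVA library was well above the highest EC-SAL library.

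Of the chains that combine with type II, Col9a3 stood at 927.5, 995 and 1012 against 1708, 1365 and 1645 CPM (log2 fold change 0.70, SE 0.087, edgeR adjusted p = 0.000857) and Col9a2 at 359.6, 336 and 371 against 552, 463 and 560.5 CPM (0.58, SE 0.092, edgeR adjusted p = 0.00449). Col9a1 was not called, at 323, 263 and 209.7 against 323, 312 and 351 CPM (0.33, SE 0.13, edgeR adjusted p = 0.28). Col11a1 stood at 360.3, 348 and 326 against 580.5, 569 and 503 CPM (0.70, SE 0.092, edgeR adjusted p = 0.00128). The libraries of Col9a2, Col9a3 and Col11a1 did not overlap between groups. Col9a2 lost its call with collagen genes used for clustering, at 0.32 (edgeR adjusted p = 0.197). Col11a2 went from 126 ± 19.8 to 181 ± 7.97 CPM (0.55, SE 0.12, edgeR adjusted p = 0.0343), a call that was lost with DESeq2, with doublets kept, with the stricter cell filter, with collagen genes used for clustering, without EC-SAL library 1 or 2 and without EC-OVA library 1 or 3.

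The type VI chains also rose in chondrocyte-like cells. Col6a2 stood at 487, 537 and 529 against 760.5, 781.5 and 737 CPM (log2 fold change 0.57, SE 0.085, edgeR adjusted p = 0.00297). Col6a3 stood at 345, 373 and 325 against 486, 483.5 and 472 CPM (0.49, SE 0.088, edgeR adjusted p = 0.0106), and Col6a1 at 661, 668 and 655 against 865, 808 and 847 CPM (0.37, SE 0.076, edgeR adjusted p = 0.0278). None overlapped between groups, but both Col6a3 and Col6a1 lost the call with collagen genes used for clustering. Col6a3 lost it also with the stricter cell filter and without EC-SAL library 1 or 3, and Col6a1 with DESeq2 and without any library other than EC-OVA library 2. The 12 chondrocyte markers in this class summed to 11880 to 12660 CPM in EC-SAL and 12500 to 13440 CPM in EC-OVA, with 5 of them higher in every EC-OVA library, and the 12 fibroblast markers to 26980 to 27760 CPM in EC-SAL and 19920 to 21140 CPM in EC-OVA. Their part in the calls was not tested.

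In perichondrial or tendon-like cells 2 of 21 collagens were higher and 0 lower, where 0.234% of all genes tested were higher and 0.293% lower. Col6a3 stood at 178, 174 and 162 CPM in EC-SAL and 289, 309 and 255 CPM in EC-OVA (log2 fold change 0.75, SE 0.12, edgeR adjusted p = 0.00529). Col3a1 stood at 902, 814 and 881 against 1106, 1165 and 1279 CPM (0.47, SE 0.092, edgeR adjusted p = 0.0282). Neither overlapped, and the Col3a1 call was lost with DESeq2, without any EC-SAL library and without EC-OVA library 3.

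In pericyte- and smooth muscle-like cells, the contractile cells around vessels, 12 of the 13 collagens tested were higher in EC-OVA and 0 lower. Of all 5063 genes tested there, 1.86% were higher and 1.94% lower, and 31 collagens were too low to be tested. The median log2 fold change was 1.01 over the tested collagens and 0.01 over all genes tested. Col6a2 stood at 410.0, 411 and 450.1 CPM in EC-SAL and 1044, 1046 and 973 CPM in EC-OVA (1.23, SE 0.11, edgeR adjusted p = 3.35e-07). Col6a1 stood at 681, 563 and 643 against 1423, 1213 and 1275 CPM (1.01, SE 0.11, edgeR adjusted p = 2.92e-06), and Col6a3 at 184, 156 and 185 against 393, 448 and 372 CPM (1.17, SE 0.14, edgeR adjusted p = 1.55e-05). Every EC-OVA library was far above the EC-SAL range for all 3 chains. Col6a5 stood at 14.1, 14.98 and 7.71 against 52.6, 76.1 and 54.8 CPM, from 14 and 106 UMIs (2.27, SE 0.35, edgeR adjusted p = 0.000319).

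The vessel basement membrane genes of pericyte- and smooth muscle-like cells moved as well. Col18a1 stood at 153, 123 and 139 CPM in EC-SAL and 381.5, 321 and 368 CPM in EC-OVA (log2 fold change 1.32, SE 0.14, edgeR adjusted p = 2.92e-06). Col4a1 stood at 144, 141 and 147 against 321, 318 and 300.3 CPM (1.09, SE 0.14, edgeR adjusted p = 2.75e-05), and its head-to-head neighbour Col4a2 at 280.4, 267 and 381 against 498, 501 and 504 CPM (0.66, SE 0.14, edgeR adjusted p = 0.00562). None of these overlapped, and Col4a2 lost the call without EC-SAL library 1 or 2. Col15a1 was too low to be tested, at 2.36, 2.997 and 2.57 against 21.4, 15.2 and 26.4 CPM. It had 3 UMIs in EC-SAL and 36 in EC-OVA, a ratio of levels of 7.96 with a 95% interval of 2.52 to 40.4 that covers counting error only.

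The fibril chains of pericyte- and smooth muscle-like cells rose in parallel. Col1a1 stood at 327.5, 264 and 455 against 735, 748 and 874.5 CPM (log2 fold change 1.13, SE 0.15, edgeR adjusted p = 4.08e-05) and Col5a2 at 196, 192 and 175 against 331, 315 and 372 CPM (0.82, SE 0.14, edgeR adjusted p = 0.000773). Neither overlapped between groups. Col1a2 (0.78), Col5a3 (0.82) and Col3a1 (0.55) were called too, at edgeR adjusted p of 0.00106, 0.0122 and 0.00201. With the predicted doublets kept, Col1a1, Col1a2 and Col3a1 lost the call, with edgeR adjusted p of 0.146, 0.211 and 0.122, and Col5a3 lost it with DESeq2 and without EC-SAL library 2 or 3.

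Markers of other cells in the pericyte- and smooth muscle-like sums are given next. The 12 fibroblast markers, none of them at 0, summed to 3598 to 4109 CPM in EC-SAL and 4351 to 5081 CPM in EC-OVA, with 2 of the 12 higher in every EC-OVA library. The 8 vascular markers summed to 379 to 402 CPM in EC-SAL and 366 to 467 CPM in EC-OVA. The 11 macrophage and monocyte markers summed to 346 to 494.5 CPM in EC-SAL and 932 to 1026 CPM in EC-OVA, with Adgre1, Fcgr1 and Ly6c2 at 0. The class's own 11 markers summed to 11090 to 12800 CPM in EC-SAL and 11920 to 12940 CPM in EC-OVA, with 4 of them higher in every EC-OVA library. The part of fibroblast RNA in the rise of the fibril chains was not tested.

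**Figure D5:**
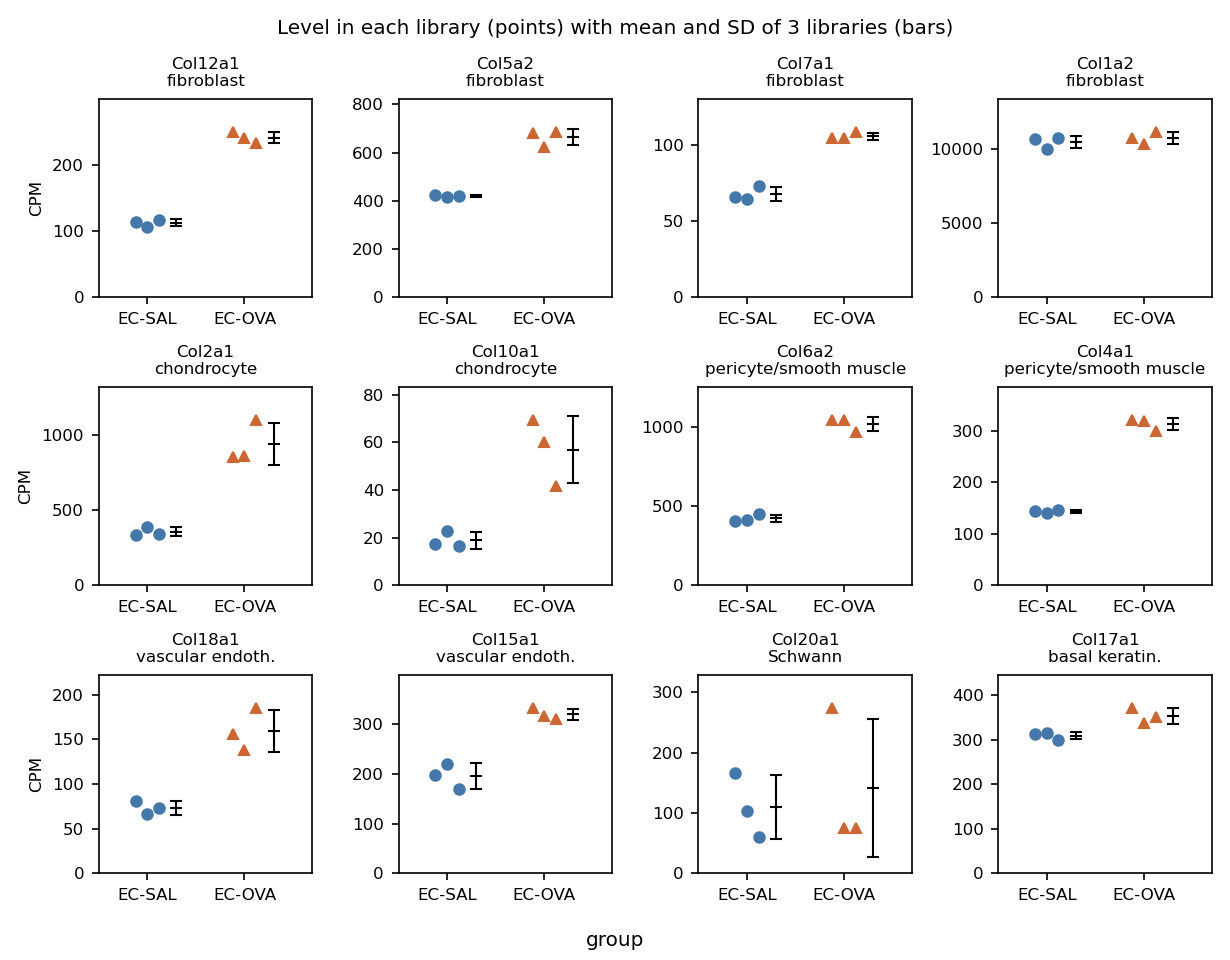
Levels in CPM of 12 gene and class pairs, 1 point per library, with the mean and SD of 3 libraries as bars. EC-OVA triangles lie above all EC-SAL circles for Col12a1, Col5a2 and Col7a1 in fibroblast-like cells, for the chondrocyte, pericyte and vascular genes shown and for Col17a1 in basal keratinocyte-like cells. They overlap for Col1a2 in fibroblast-like and Col20a1 in Schwann-like cells.

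In vascular endothelial-like cells 4 of the 13 collagens tested were higher and 0 lower, where 1.34% of all 7907 genes tested were higher and 1.92% lower. All were genes of the basement membrane. Col18a1 stood at 81.3, 66.3 and 72.7 CPM in EC-SAL and 156, 138 and 185 CPM in EC-OVA (log2 fold change 1.09, SE 0.12, edgeR adjusted p = 0.000161). Col15a1 stood at 197.5, 220.4 and 169 against 333, 316 and 311 CPM (0.68, SE 0.10, edgeR adjusted p = 0.00221). Col4a1 stood at 146.5, 148 and 151 against 177, 243 and 309 CPM (0.68, SE 0.16, edgeR adjusted p = 0.0297), and Col4a2 at 237, 244.5 and 214.5 against 274.5, 359 and 355 CPM (0.48, SE 0.12, edgeR adjusted p = 0.0387). No groups overlapped, but EC-OVA library 1 was the lowest of its group for both type IV chains. Col4a1 lost the call without any EC-SAL library or EC-OVA library 3, and Col4a2 with DESeq2, with doublets kept and without any library other than EC-OVA library 1. Col13a1 had a log2 fold change of -0.06 (edgeR adjusted p = 0.954). The 11 pericyte and smooth muscle markers in this class summed to 518 to 803 CPM in EC-SAL and 304 to 425 CPM in EC-OVA, and the 12 fibroblast markers stood at 270.5 to 282 CPM in EC-SAL and 232 to 273 CPM in EC-OVA.

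In lymphatic endothelial-like cells 1 of 8 collagens was higher and 0 lower, where 0.533% of all genes tested were higher and 0.630% lower. This was Col18a1, at 271, 301.5 and 264 CPM in EC-SAL and 411, 373 and 407.5 CPM in EC-OVA (log2 fold change 0.50, SE 0.12, edgeR adjusted p = 0.0398). The groups did not overlap, and the call was lost with DESeq2, with doublets kept and without any library other than EC-OVA library 2.

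In Schwann-like, basal keratinocyte-like and dermal papilla-like cells edgeR called 0 of 16, 0 of 12 and 0 of 16 collagens. At an unadjusted p under 0.05 there were 5, 5 and 2, and DESeq2 called 0 in each. Of all genes tested, 0.0326% and 0.130% were called higher and lower in Schwann-like, 0.0740% and 0.0106% in basal keratinocyte-like and 0.00% and 0.0932% in dermal papilla-like cells. Col20a1 in Schwann-like cells stood at 166, 104 and 60.5 CPM in EC-SAL and 274, 74.7 and 75.3 CPM in EC-OVA, a spread within each group larger than the difference between them (0.38, SE 0.43, edgeR adjusted p = 0.893). Col28a1 stood there at 103, 98.9 and 112 against 74.2, 137 and 113 CPM, with overlap, and Col12a1 at 76.4, 62.5 and 82.2 against 39.9, 43.6 and 50.2 CPM (-0.74, SE 0.34, edgeR adjusted p = 0.656), lower in every EC-OVA library.

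Col17a1 in basal keratinocyte-like cells stood at 313, 316 and 299.6 CPM in EC-SAL and 371, 337 and 351 CPM in EC-OVA. The groups did not overlap, and the difference was not called (log2 fold change 0.21, SE 0.070, edgeR adjusted p = 0.383). Col7a1 stood at 31.2, 29.2 and 30.6 against 37.5, 33.4 and 30.4 CPM and overlapped (0.17, SE 0.12, edgeR adjusted p = 0.733). Col23a1 in dermal papilla-like cells stood at 267, 250.3 and 325 against 309, 230.1 and 316 CPM, with overlap (0.03, SE 0.16, edgeR adjusted p = 0.999). Col26a1 was too low to be tested there, at 11.9, 7.15 and 8.80 against 18.4, 21.9 and 18.9 CPM from 10 and 24 UMIs, with every EC-OVA library above every EC-SAL library.

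Whether the OVA effect differed between fibroblast-like cells and another class was tested as an interaction, with library as a block, and is given for genes that were also tested in each class on its own. The spread of a gene was estimated over the sums of both classes together. For Col1a1 the resulting SE was smaller than the SE within pericyte- and smooth muscle-like cells alone. The p-values of these differences may therefore be too small. In pericyte- and smooth muscle-like cells the effect was larger for 8 of 13 collagens and smaller for 0, where 1.40% of all such genes had a larger effect and 1.26% a smaller one. The difference in log2 fold change was 0.99 (SE 0.11, edgeR adjusted p = 7.07e-13) for Col1a1, 0.74 (SE 0.10, edgeR adjusted p = 8.54e-09) for Col1a2, 0.64 (SE 0.10, edgeR adjusted p = 1.43e-06) for Col6a1 and 1.02 (SE 0.17, edgeR adjusted p = 1.08e-05) for Col18a1. It was 0.92 (SE 0.17, edgeR adjusted p = 3.32e-05) for Col4a1, and Col4a2, Col6a2 and Col6a3 were called as well. The type I chains, which were not called in fibroblast-like cells, thus differed between these classes. These differences were not rerun with doublets kept, where both type I chains lost the call within pericyte- and smooth muscle-like cells.

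In vascular endothelial-like cells the effect was larger for 3 of 13 collagens (1.71% of all genes, 2.53% smaller): it differed by 0.77 (SE 0.12, edgeR adjusted p = 2.1e-05) for Col15a1, by 0.81 (SE 0.15, edgeR adjusted p = 0.000757) for Col18a1 and by 0.51 (SE 0.13, edgeR adjusted p = 0.0115) for Col4a1. The effect on Col12a1 was smaller than in fibroblast-like cells in 3 classes. It differed by -1.03 (SE 0.22, edgeR adjusted p = 0.0118) in chondrocyte-like, -0.996 (SE 0.17, edgeR adjusted p = 0.00138) in perichondrial or tendon-like and -1.93 (SE 0.38, edgeR adjusted p = 0.000205) in Schwann-like cells. It was the one collagen called in each of these pairs, of 18, 17 and 15, where 1.16%, 0.80% and 0.699% of all genes had a smaller and 0.951%, 0.978% and 0.632% a larger effect. Without sub-cluster 8, a choice made after it was seen, the Col12a1 difference was -0.61 in chondrocyte-like (edgeR adjusted p = 0.305) and -0.57 in perichondrial or tendon-like cells (edgeR adjusted p = 0.194), and neither was called. It stayed called in Schwann-like cells, at -1.47 (edgeR adjusted p = 0.0333), and Col4a1 in vascular endothelial-like cells lost the call (edgeR adjusted p = 0.0566).

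In basal keratinocyte-like cells, the effect was smaller for 1 of 10 collagens, Col7a1, by -0.55 (SE 0.15, edgeR adjusted p = 0.0131), and larger for 0, where 4.03% and 2.09% of all genes had a smaller and a larger effect. Without sub-cluster 8 the Col7a1 difference was -0.17 (edgeR adjusted p = 0.724) and was not called. For lymphatic endothelial-like (0.266% larger, 0.332% smaller over all genes) and dermal papilla-like cells (0.206% and 0.394%) edgeR called 0 of 8 and 0 of 16 collagens, with 4 and 5 at an unadjusted p under 0.05; DESeq2 was not run on these differences.

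Over all kept cells of a library, where change within cells and change in their mix add up, 32 of 40 collagens were higher in EC-OVA and 1 was lower, with 22.5% of all genes tested called higher and 22.3% lower. The median log2 fold change was 0.93 over the tested collagens and 0.00 over all genes. Col1a1 went from 1616 ± 48.3 to 3122 ± 207 CPM (log2 fold change 0.90, SE 0.065, edgeR adjusted p = 3.79e-05) although it was not called within fibroblast-like cells. The one fall was Col17a1, from 88.7 ± 2.79 to 48.8 ± 3.42 CPM (-0.92, SE 0.049, edgeR adjusted p = 1.18e-05). Beside it, basal keratinocyte-like cells numbered 1843 in EC-SAL and 547 in EC-OVA. In such sums more cells of a type and more RNA per cell cannot be told apart.

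The genes that make, trim and link collagen were described from lists, in fibroblast-like cells. Of all genes tested in these cells 5.0% were called higher and 3.65% lower, with a median log2 fold change of 0.01, and the counts and medians of the lists stand beside these. Of 19 tested genes of collagen biosynthesis and secretion, 4 were higher and 0 lower, with a median of 0.17. P4ha3, an alpha subunit of prolyl 4-hydroxylase, rose from 1.87 ± 1.31 to 12.3 ± 3.25 CPM (log2 fold change 2.66, edgeR adjusted p = 0.000316). P4hb, the protein disulfide isomerase that is the enzyme's beta subunit, rose from 224 ± 2.58 to 269 ± 13.3 CPM (log2 fold change 0.27, edgeR adjusted p = 0.0207). P3h1, a prolyl 3-hydroxylase, rose from 60.3 ± 4.47 to 73.7 ± 5.45 CPM (log2 fold change 0.30, edgeR adjusted p = 0.039), and the lysyl hydroxylase Plod3 was also higher. P4hb, P3h1 and Plod3 lost the call with DESeq2 (adjusted p = 0.105, 0.236 and 0.273). They also lost it with doublets kept, without sub-cluster 8 and with the same mix of sub-clusters. Plod3 lost it with the stricter cell filter and without sub-clusters 7 and 13 as well. P4hb lost it also without any EC-SAL library or EC-OVA library 1, and P3h1 and Plod3 without EC-SAL library 1 or 2 or EC-OVA library 1 or 3.

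Of 10 tested genes of procollagen processing and crosslinking, 5 were higher and 1 lower (5.0% and 3.65% of all genes), with a median of 0.30. Lox, the lysyl oxidase that starts crosslinks between fibrils, rose from 185 ± 8.32 to 363 ± 21.9 CPM (log2 fold change 0.99, edgeR adjusted p = 2.78e-06). The related oxidase Loxl1 rose from 151 ± 5.53 to 219.8 ± 8.56 CPM (log2 fold change 0.56, edgeR adjusted p = 0.000172). Pcolce2, which helps the removal of the C-propeptide of fibrillar collagens, fell from 241 ± 20.6 to 170.1 ± 6.89 CPM (log2 fold change -0.49, edgeR adjusted p = 0.000818). Bmp1, which makes that cut, and the oxidases Loxl2 and Loxl4 were also higher. These 3 lost the call without sub-cluster 8 and, like Loxl1 (edgeR adjusted p = 0.0694), with the same mix of sub-clusters. Loxl4 lost it with DESeq2 as well and without any library other than EC-OVA library 1.

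Of 16 tested fibril-binding proteoglycans and glycoproteins, 3 were higher and 3 lower (5.0% and 3.65% of all genes), with a median of -0.008. Postn, a matricellular protein that binds collagen I, rose from 2287 ± 67.6 to 3170 ± 151 CPM (log2 fold change 0.48, edgeR adjusted p = 0.00026). Thbs2, another matricellular protein, rose from 165 ± 7.75 to 234 ± 17.5 CPM (log2 fold change 0.51, edgeR adjusted p = 0.000542), and Fn1 was also higher. The Fn1 call was lost with DESeq2, with doublets kept, without sub-cluster 8 and without any library other than EC-OVA library 2. The small proteoglycan decorin, Dcn, which coats fibrils and is also a marker of the class, fell from 23630 ± 51.3 to 18530 ± 819 CPM (log2 fold change -0.34, edgeR adjusted p = 0.000939), and Fmod and Kera were also lower. With the same mix of sub-clusters Dcn, Fmod and Kera lost the call, at edgeR adjusted p of 0.315, 0.356 and 0.968. With doublets kept Fmod and Kera stood at 0.20 and 0.37 on the log2 scale, the opposite direction, and were not called. Kera lost its call without sub-cluster 8, EC-SAL library 3 or EC-OVA library 3 as well.

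Of 6 tested collagen receptors, Itga1, the alpha chain of a collagen-binding integrin, was the one called, from 7.95 ± 1.65 to 14.5 ± 0.122 CPM (log2 fold change 0.88, edgeR adjusted p = 0.00458), and lost the call without sub-cluster 8 (edgeR adjusted p = 0.0712). Of 6 tested collagen-degrading enzymes edgeR called 0 and DESeq2 0, and 2 had an unadjusted p under 0.05. These were Mmp9, at 0.946 ± 0.660 to 2.60 ± 0.451 CPM (log2 fold change 1.46, edgeR adjusted p = 0.0546), and Mmp14, at 324 ± 16.1 to 370.0 ± 6.84 CPM (log2 fold change 0.20, edgeR adjusted p = 0.055).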

How the data were processed

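Per the file headers, the deposited values are counts of UMIs per gene and barcode from Cell Ranger 3.1.0, and the submitters' processing notes name STAR and mm10. No deposited barcode held fewer than 500 UMIs, which points to a cell filter upstream. The annotation release is not given in the sources used here; IDs of 32158 of 32285 genes, with all 44 collagens, were matched to GENCODE M21.

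Cells with under 300 genes or over 15% mitochondrial counts were left out (32.8 to 35.9% of barcodes in EC-SAL and 29.9 to 32.2% in EC-OVA; the mitochondrial limit alone took 22.1 to 23.1% and 14.1 to 15.2% of those with enough genes). Scrublet's own threshold marked at most 0.234% of a library, so the highest doublet scores at 0.8% per 1000 barcodes were left out instead, which left 24432 of 38206 barcodes. With scanpy 1.11.5 (Python 3.11.15), 2000 variable genes without collagens, 40 principal components and 20 neighbours gave 31 Leiden clusters at resolution 1.0 (seed 1), named from at least 3 markers raised 2-fold in 25% of cells. The classes rested on 5 to 12 raised markers. Fibroblast-like cells were clustered again at resolution 0.5 on 20 components.

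UMIs were summed per class and library (at least 10 cells in each) and tested with edgeR 4.0.16 in R 4.3.3: filterByExpr, TMM scaling, quasi-likelihood test on the group, Benjamini-Hochberg over all genes tested, threshold 0.05. Summed UMIs of a library ranged from 4000271 to 7128421 in fibroblast-like and 333695 to 608049 in pericyte- and smooth muscle-like cells. The tests were checked on simulated data. Alternatives were DESeq2 1.42.0, RLE scaling, collagens left out of library size, no filter, a replicate block, each library left out, doublets kept, stricter cells (500 genes, 10% mitochondrial), collagens used for clustering, resolution 1.5 and the same mix of clusters. In fibroblast-like cells that mix took only sub-clusters with at least 10 cells in every library, and so left out sub-clusters 8, 12 and 13. Differences between classes were read for genes tested in both. Leaving out sub-cluster 8 (also in those differences) or sub-clusters 7 and 13, the same mix in vascular endothelial-like and Schwann-like cells, and the dermal papilla-like class were added after the clusters were seen.

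The collagens, marker lists and gene lists were chosen with earlier results of these data known. Library values are given for collagens past the threshold (the 8 with the smallest p where more were called) and for set chains in their highest class, and other lists by up to 3 members with the smallest p. Sub-cluster levels, Schwann-like and endothelial clusters and low chains were chosen for the text after their values were seen.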

Additional observations from a re-analysis of the deposited data

Results flagged for a closer look

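What stood out was that the effect of OVA on 15 pairs of collagen and class differed from the effect on the same collagen in fibroblast-like cells, each by edgeR's test of the interaction (adjusted p under 0.05). The values are differences of log2 fold changes, the class minus fibroblast-like cells, over 3 libraries per group. The test estimates the spread over both classes together, so its adjusted p may be too small.

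In pericyte- and smooth muscle-like cells the effect was larger for 8 collagens: by 0.99 for Col1a1, 0.74 for Col1a2, 0.92 for Col4a1, 0.49 for Col4a2, 0.64 for Col6a1, 0.61 for Col6a2, 0.64 for Col6a3 and 1.02 for Col18a1. Col4a2 lost this call without EC-SAL library 2 or EC-OVA library 1. The differences were not rerun with doublets kept, where Col1a1 and Col1a2 lost the call within pericyte- and smooth muscle-like cells. In vascular endothelial-like cells it was larger by 0.77 for Col15a1, 0.81 for Col18a1 and 0.51 for Col4a1, and the last lost the call without sub-cluster 8, EC-SAL library 2 or 3 or EC-OVA library 3.

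For Col12a1 the difference was -1.03 in chondrocyte-like, -0.996 in perichondrial or tendon-like and -1.93 in Schwann-like cells. The first lost the call without sub-cluster 8, EC-SAL library 3 or EC-OVA library 2, and the second without sub-cluster 8. In basal keratinocyte-like cells it was -0.55 for Col7a1, which lost the call without sub-cluster 8, EC-SAL library 1 or 2 or EC-OVA library 2 or 3.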

How the results depend on the processing

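The number of collagens called kept within 1.5 times its value in most settings, and the exceptions follow. In fibroblast-like cells it was 8 without sub-cluster 8, in place of 13, while the 15 with the replicate block lay within that range. Without sub-cluster 8 the number of differences from fibroblast-like cells was 0 in place of 1 in chondrocyte-like and 0 in place of 1 in basal keratinocyte-like cells. In perichondrial or tendon-like cells, in place of 2, it was 1 with DESeq2, 7 with no filter on low counts, 7 with doublets kept, 6 with the stricter cell filter and 7 with collagen genes used for clustering. In lymphatic endothelial-like cells, in place of 1, it was 0 with DESeq2, 4 with no filter, 2 with the replicate block and 0 with doublets kept. In basal keratinocyte-like cells, in place of 0, it was 11 with collagen genes used for clustering, where the class also took in the cluster led by Krt17 and Gjb2; Col17a1 then stood at -0.036 on the log2 scale in place of 0.21. In sub-cluster 4 it was 2 with no filter in place of 1; in sub-cluster 5, 9 with no filter and 7 with the replicate block in place of 4; in sub-cluster 9, 1 with DESeq2, 2 with no filter and 1 with the replicate block in place of 0; and in sub-cluster 11, 1 with no filter in place of 0. Col1a2 in fibroblast-like cells stood at -0.011 without sub-cluster 8 in place of 0.05, and the share of collagen in lymphatic endothelial-like cells differed by -0.0123 percentage points with doublets kept in place of 0.0307. Other causes of these shifts were not tested.

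Without single libraries the number called ran from 1 to 3 in perichondrial or tendon-like, 2 to 4 in vascular and 0 to 2 in lymphatic endothelial-like cells, and from 3 to 6, 2 to 4, 0 to 2, 1 to 6 and 1 to 3 in sub-clusters 1, 2, 4, 5 and 7. The number of differences from fibroblast-like cells ran from 0 to 2 in chondrocyte-like, 0 to 1 in basal keratinocyte-like and 0 to 1 in dermal papilla-like cells. Replicate numbers were not taken as pairs in the main test. In fibroblast-like cells deviations of same-numbered libraries correlated at 0.327, 0.23 and -0.106. Those of differently numbered EC-SAL and EC-OVA libraries correlated at -0.42 to 0.213. These values do not settle whether the numbers mark pairs. Of the values of single genes, 779 kept direction and side of the threshold in settings that keep all libraries, 40 lost the call, 1 gained it and 2 reversed, and 589 kept both and 95 lost the call without single libraries. Sub-clusters were not rerun under other cell filters or clusterings, nor all kept cells under other clusterings. Depth of the tested sums was lowest in sub-clusters 7, 10 and 11, with 38820 to 145112 UMIs per library, and among the classes in Schwann-like cells, with 159392 to 231251. On simulated data edgeR recovered 9.84% of 1.5-fold changes in Schwann-like sums (3049 genes) and 40.9% in fibroblast-like sums (11356 genes).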
